A study of Mus musculus with 9 samples.

Results

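The metabotropic and ionotropic receptors for serotonin, noradrenaline, acetylcholine (muscarinic type) and histamine were examined in dopaminergic neurons of the mouse midbrain. Members were all table rows whose gene symbol begins with Htr, Adra, Adrb, Chrm or Hrh, followed by the number of a receptor type. This gave 32 of the 24487 rows, namely 14 serotonin, 9 adrenergic, 5 muscarinic and 4 histamine receptor genes. RNA sequencing covered 4 libraries of midbrain dopaminergic neurons and 5 libraries of whole midbrain, all from mice with a C57BL/6 background. The labels give no treatment, age, sex or transgene for either group, and do not say how RNA of the dopaminergic neurons was obtained. They state total RNA for both. The name of the deposited table holds the word bacTRAP, a method that pulls down tagged ribosomes of a chosen cell type. How the RNA was obtained coincides with the groups, and its effect cannot be told apart from that of the cell type. Nothing in the labels ties a library to an animal or pool, and the p-values below therefore describe the scatter among these 9 libraries, part of which may be technical.

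Serotonin, noradrenaline, acetylcholine and histamine are released over wide parts of the brain by small groups of neurons and act mostly on receptors that signal through G proteins. Receptors coupled to Gq raise intracellular calcium through phospholipase C, those coupled to Gi or Go lower cyclic AMP and open potassium channels, and those coupled to Gs raise cyclic AMP. The serotonin receptor subunits Htr3a and Htr3b form ion channels instead. In the midbrain these transmitters adjust the firing of dopaminergic neurons, some by acting on the neurons themselves and some through neighbouring cells and incoming axons.

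The windows around the annotated gene starts are shown for the members with the highest mean level in each group (Chrm5 and Hrh3 in dopaminergic neurons, Htr2c and Hrh3 in whole midbrain) and for Chrm2, the third in whole midbrain. They are RefSeq sequences of build GRCm38.p6, 5′ to 3′ on the gene's strand, with 250 bases before the start in lower case and the first 50 transcribed bases in capitals. The Chrm5 start is that of a single-exon model of 1746 bases. Chrm5 lies at chr2:112480768-112481067 (minus strand), Hrh3 at chr2:180104358-180104657 (minus strand), Htr2c at chrX:146962263-146962562 (plus strand) and Chrm2 at chr6:36387834-36388133 (plus strand).
Chrm5: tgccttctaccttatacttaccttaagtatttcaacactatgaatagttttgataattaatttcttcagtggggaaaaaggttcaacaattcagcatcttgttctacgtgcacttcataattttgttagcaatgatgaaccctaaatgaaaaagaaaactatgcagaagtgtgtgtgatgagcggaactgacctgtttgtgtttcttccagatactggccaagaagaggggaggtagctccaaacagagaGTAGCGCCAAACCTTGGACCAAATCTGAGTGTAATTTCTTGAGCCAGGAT
Hrh3: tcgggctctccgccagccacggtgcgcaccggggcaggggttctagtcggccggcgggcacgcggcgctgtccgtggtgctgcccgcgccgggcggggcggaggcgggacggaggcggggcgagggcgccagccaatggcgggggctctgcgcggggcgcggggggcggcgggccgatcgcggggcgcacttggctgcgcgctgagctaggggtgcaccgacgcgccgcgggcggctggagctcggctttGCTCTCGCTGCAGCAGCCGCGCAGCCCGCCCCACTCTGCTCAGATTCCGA
Htr2c: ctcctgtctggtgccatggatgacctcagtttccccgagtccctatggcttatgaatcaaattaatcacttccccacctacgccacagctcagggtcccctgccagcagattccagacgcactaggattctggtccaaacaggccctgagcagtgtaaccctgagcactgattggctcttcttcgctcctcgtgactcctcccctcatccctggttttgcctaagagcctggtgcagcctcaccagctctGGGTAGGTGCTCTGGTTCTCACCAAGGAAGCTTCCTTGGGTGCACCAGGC
Chrm2: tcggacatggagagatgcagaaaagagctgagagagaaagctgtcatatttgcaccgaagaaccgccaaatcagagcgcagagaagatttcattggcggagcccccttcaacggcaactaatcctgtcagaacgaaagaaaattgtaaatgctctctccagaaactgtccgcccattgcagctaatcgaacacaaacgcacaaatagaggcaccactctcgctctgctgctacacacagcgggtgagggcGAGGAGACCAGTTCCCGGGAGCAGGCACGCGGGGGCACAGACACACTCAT
The Hrh3 window held 79.0% G and C and 47 CG pairs. Those of Chrm2, Htr2c and Chrm5 held 52.7%, 56.3% and 39.0% with 16, 5 and 3 CG pairs. The motifs looked for on both strands were AAAGGTCA (the site of the NR4A nuclear receptors) and TAATCC (the core site of bicoid-type homeobox factors such as those of the Pitx and Otx families). Of 32 members, 23 had an entry, with 30 windows in all. None of the 30 held AAAGGTCA, against 1.51% of all 32851 windows in the table, and TAATCC stood in 2 of them, those of Chrm2 (132 bases before the start) and Chrm4 (235 bases before it), against 7.06% of all windows. A match is only a description of these letters.

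Values are FPKM (fragments scaled by transcript length and by the mapped fragments of the library), as the authors deposited them, so that levels of different genes can be set side by side per length. From single-exon genes, 1 read per 1000 positions was worth 0.0158 to 0.0209 FPKM in the dopaminergic libraries and 0.0297 to 0.0611 FPKM in the whole midbrain libraries, which is about 47.8 to 63.1 and 16.4 to 33.7 megareads. The defining genes of dopaminergic neurons matched the label: Th, Slc6a3, Slc18a2 and Ddc summed to 3542 to 3939 FPKM in the dopaminergic libraries against 199 to 229 FPKM in whole midbrain. Markers of other cells were low there without being absent. The 8 astrocyte markers summed to 33.0 to 50.0 FPKM against 825 to 887 FPKM, the 7 oligodendrocyte markers to 157 to 268 against 2760 to 3263, the 8 microglial markers to 5.08 to 10.8 against 123 to 149, and the 6 endothelial markers to 0.603 to 1.70 against 65.8 to 112. All of these 29 markers were lower in every dopaminergic library than in every whole midbrain library, and none was at 0 in any of them. Markers of GABAergic and glutamatergic neurons were lower without overlap too, but remained present. Those of serotonergic, cholinergic and noradrenergic neurons are given with the receptors below. The 3 GABAergic markers summed to 42.6 to 49.4 FPKM against 241 to 276 FPKM. The 2 glutamatergic markers summed to 10.2 to 15.6 FPKM against 52.7 to 72.0 FPKM. Their part in the receptor levels of the dopaminergic libraries was not tested. Whole midbrain library 2 stood apart from its group, with correlations across genes of 0.903 to 0.906 with the others, which correlated at 0.947 to 0.962 with each other.

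Of the 32 receptor genes, 15 had a mean of at least 1 FPKM in both groups, 1 (Adrb3) in dopaminergic neurons alone and 5 (Adra1a, Hrh1, Htr1d, Htr2b and Htr4) in whole midbrain alone. The other 11 were under 1 FPKM in both groups and are listed as not detected, a share to be read against the 43.8% of all rows that fell under the same limit. The members nearest the limit were Htr4, inside it with 1.04 FPKM in whole midbrain, and Htr1f, outside it with 0.850 FPKM there. The order of levels differed between the groups. Chrm5 and Hrh3 were the highest 2 of the 32 in every dopaminergic library, Chrm5 leading in libraries 1 and 3 and Hrh3 in libraries 2 and 4, and Htr2c held the first rank in every whole midbrain library. Chrm5 ranked 14 to 16 in whole midbrain, and Htr2c ranked 3 to 5 in the dopaminergic libraries. Adrb3 ranked 6 to 9 in the dopaminergic libraries and 23 to 27 in whole midbrain.

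**Figure D1:**
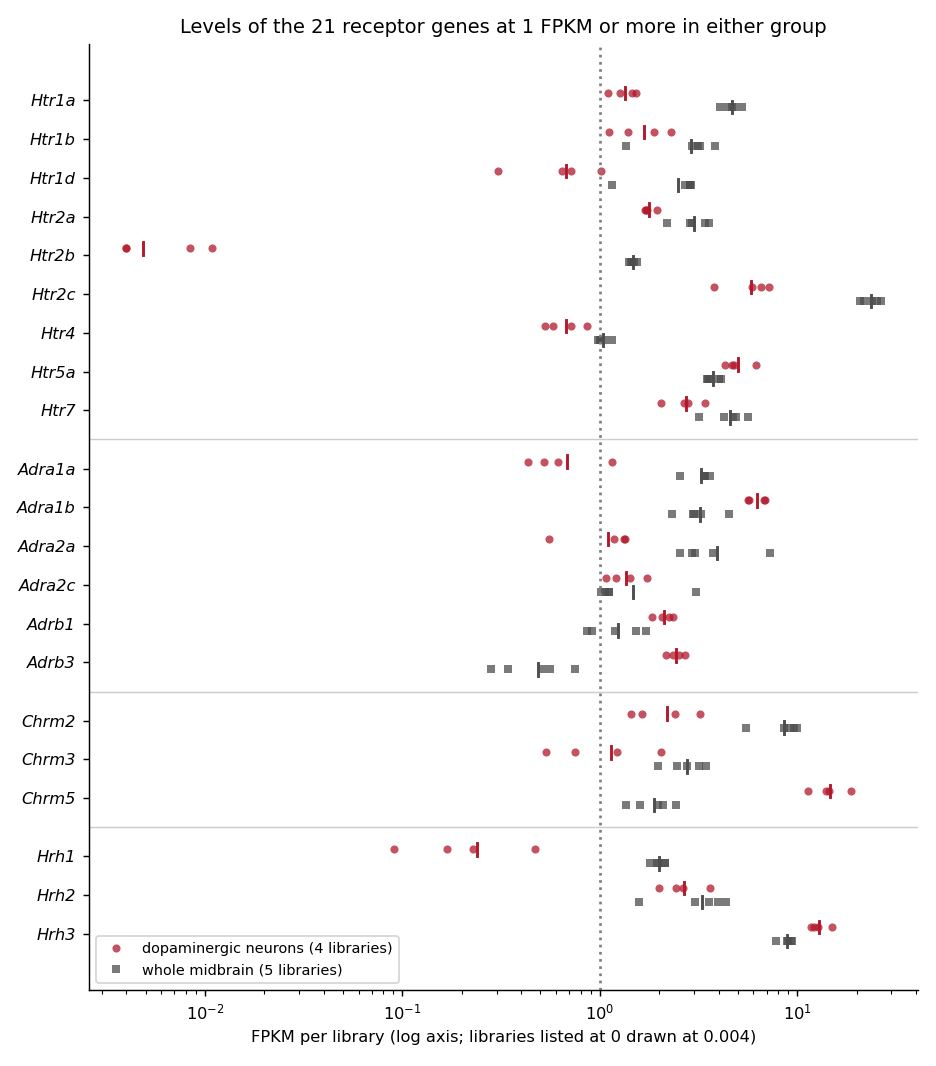
FPKM of the 21 receptor genes that reached a mean of 1 FPKM in either group, on a log axis, with 1 point per library and a vertical tick at each group mean (red circles, dopaminergic neurons; grey squares, whole midbrain; the dotted line marks 1 FPKM). Chrm5 and Adrb3 lie to the right of whole midbrain with a wide gap, while Htr2c, Hrh1, Htr2b and Chrm2 lie to its left.

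The comparison of the groups asked which receptor genes differ in level between dopaminergic neurons and whole midbrain, a tissue that includes these neurons. It used limma on log2(FPKM + 1) over the 13106 genes that averaged 1 FPKM or more, and a gene was called when the adjusted p (Benjamini-Hochberg over all genes tested) was under 0.05. The 19 members that passed this filter split into 6 higher, 11 lower and 2 not called in dopaminergic neurons. Of all genes tested 38.3% were called higher and 36.0% lower, so a call in itself is common in this comparison. In bulk libraries fewer cells with a transcript and less of it per cell cannot be told apart. The median log2 fold change of the 19 was -0.52 and that of all genes 0.04. Groups did not overlap for 14 of the 19, against 64.4% of all genes tested. Adrb3 passed the filter only through dopaminergic neurons, and Adra1a, Hrh1 and Htr1d only through whole midbrain, so these had to differ. Without whole midbrain library 2 the counts were 6 higher and 12 lower, the added gene being Hrh2. Over the whole table FPKM added up to 506466 to 521822 in the dopaminergic libraries. In whole midbrain the sum was 409130 in library 2 and 309275 to 313252 in the others. When values were rescaled to a common sum (TPM), the median of all genes moved to -0.55, 23.3% of all calls were for higher genes against 51.5% before, and 3 members were called higher and 12 lower.

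**Figure D2:**
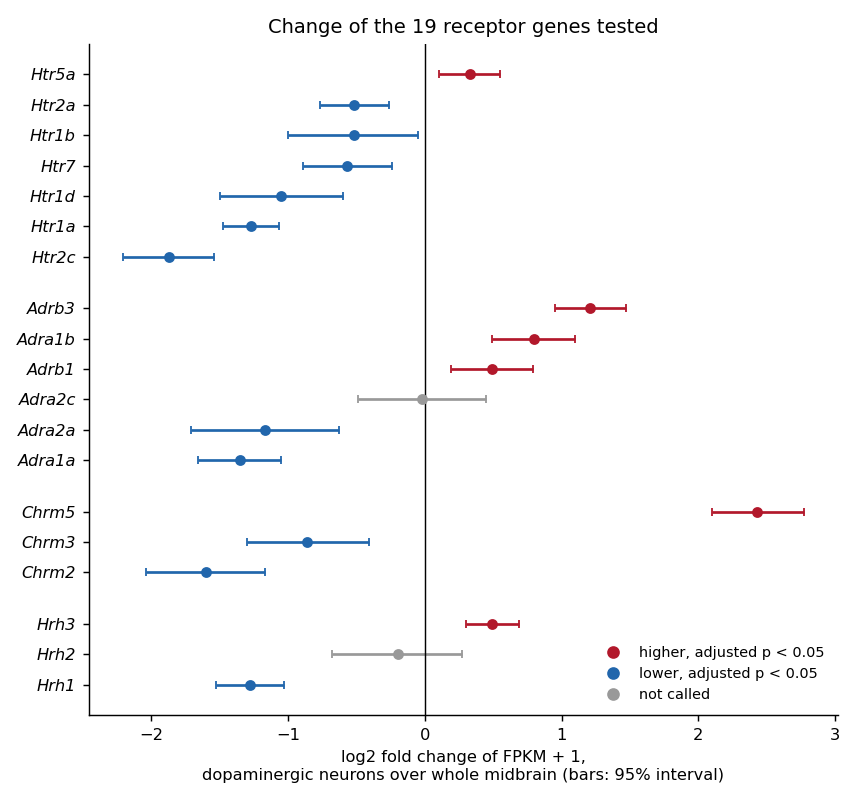
Log2 fold change of FPKM + 1 in dopaminergic neurons over whole midbrain for the 19 receptor genes tested, with 95% intervals from limma, grouped from top to bottom as serotonin, adrenergic, muscarinic and histamine receptors. Chrm5 has the highest value at 2.43 and Htr2c the lowest at -1.87, and the intervals of Adra2c and Hrh2 include 0.

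Muscarinic receptors showed the largest rise beside a clear fall. Chrm5 (chromosome 2, 112479072 to 112480817, mm10, a single exon in the annotation) encodes a Gq-coupled receptor known from midbrain dopaminergic neurons. It was at 14.0, 14.5, 18.8 and 11.4 FPKM in dopaminergic libraries 1 to 4, against 1.60, 1.36, 2.44, 2.09 and 1.97 FPKM in whole midbrain libraries 1 to 5. Every dopaminergic library was far above every whole midbrain library, and the levels correspond to about 1062 to 1838 reads in dopaminergic libraries and 49 to 102 reads in whole midbrain. The mean was 7.77-fold higher at 14.7 ± 3.06 FPKM (SD, n = 4) against 1.89 ± 0.424 FPKM (SD, n = 5). This gave a log2 fold change of 2.43 ± 0.15 (SE) in limma, with an adjusted p of 2.3e-07, and 2.13 as TPM. Chrm2, a Gi-coupled receptor known as an autoreceptor of cholinergic axons (chromosome 6, 36388084 to 36524774), went the other way. It was at 1.44, 3.23, 1.64 and 2.41 FPKM in the dopaminergic libraries and at 8.56, 5.53, 9.68, 9.22 and 10.01 FPKM in whole midbrain. The groups did not overlap, and whole midbrain library 2 was the lowest of its group. Chrm2 had a log2 fold change of -1.60 ± 0.20 (SE), with a limma adjusted p of 3.3e-05. Its exons share 142 bases with the noncoding gene 9330158H04Rik on the opposite strand.

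Chrm3, another Gq-coupled receptor and best known from glands and smooth muscle, was at 1.22, 0.534, 0.749 and 2.04 FPKM in the dopaminergic libraries, against 3.18, 1.97, 3.46, 2.78 and 2.45 FPKM in whole midbrain. Dopaminergic library 4 lay above whole midbrain library 2, so the groups overlapped. It was called lower (log2 fold change -0.86 ± 0.20, limma adjusted p = 0.00296), but not under quantile normalization (adjusted p = 0.157, in a range from 3.1e-04 to 0.157 over all alternatives). Chrm1, the main Gq-coupled subtype of the forebrain, averaged 0.327 FPKM against 0.665 FPKM and Chrm4, the Gi-coupled subtype of striatal neurons, 0.589 FPKM against 0.309 FPKM, so neither was detected by the limit used. The exons of Chrm1 share 329 bases with Gm22820, which has no row of its own. Within the muscarinic family the make-up, which no rescaling of a library changes, was turned over. Chrm5 made up 77.2% ± 8.37 of the family's FPKM in the dopaminergic libraries and 13.3% ± 1.38 in whole midbrain. Chrm2 made up 11.7% ± 4.58 and 60.3% ± 3.32.

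The 3 cholinergic markers summed to 1.59 to 3.26 FPKM in the dopaminergic libraries against 6.39 to 11.6 FPKM in whole midbrain. Of the 3, 2 (Slc18a3 and Slc5a7) did not overlap between groups. Chat overlapped, at a mean of 1.34 FPKM against 1.60 FPKM, and was not called (limma adjusted p = 0.355). None of the 3 was at 0 in a dopaminergic library. Their part in the fall of Chrm2 was not tested.

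Of the 14 serotonin receptor genes 7 were tested, and 6 of these were called lower and 1 higher in dopaminergic neurons, where 36.0% of all genes tested were called lower and 38.3% higher. Under quantile normalization 2 of the 6 lower calls held, those of Htr2c and Htr1a, and those of Htr1b, Htr1d, Htr2a and Htr7 were lost. Htr2c encodes a Gq-coupled receptor whose messenger RNA is edited and which is known to restrain dopamine release (chromosome X, 146962513 to 147197277). It was at 3.79, 7.17, 5.87 and 6.54 FPKM in the dopaminergic libraries, against 23.9, 21.8, 26.5, 25.4 and 20.7 FPKM in whole midbrain. No dopaminergic library came near the whole midbrain range, although Htr2c remained among the higher members there. The mean was 4.05-fold higher in whole midbrain, and the log2 fold change was -1.87 ± 0.15 (SE) with a limma adjusted p of 1.5e-06. Htr2a, the related Gq-coupled receptor that psychedelic drugs act on (chromosome 14, 74640840 to 74706859), was at 1.73, 1.95, 1.70 and 1.72 FPKM, against 3.57, 2.19, 2.87, 2.94 and 3.41 FPKM. The 4 dopaminergic values were close together and below all of whole midbrain. Its log2 fold change of -0.52 ± 0.11 was called (limma adjusted p = 0.00201), but not under quantile normalization, where it was -0.07 (adjusted p = 0.642, in a range from 4.7e-05 to 0.642).

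Htr2b, the third Gq-coupled serotonin receptor, known for its part in heart valve disease, was listed at 0 in dopaminergic libraries 2 and 4 and at 0.0109 and 0.00844 FPKM in libraries 1 and 3. In whole midbrain it was at 1.45, 1.44, 1.40, 1.55 and 1.49 FPKM. The 5 whole midbrain values lay close together, far above every dopaminergic value. Its mean over the 9 libraries was below the filter. With no filter it was called lower (log2 fold change -1.30, limma adjusted p = 3.4e-08). Its exons share 252 bases with the proteasome gene Psmd1 on the opposite strand, which averaged 39.7 FPKM in the dopaminergic libraries against 45.1 FPKM in whole midbrain, and nothing states that strand was kept. The 8 microglial and 6 endothelial markers were lower in the same libraries, by the sums given above, and their part in this difference was not tested.

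Among the Gi-coupled serotonin receptors, Htr1a, the autoreceptor on cell bodies of serotonergic neurons (chromosome 13, 105443693 to 105448133), was at 1.27, 1.52, 1.10 and 1.46 FPKM in the dopaminergic libraries, against 5.25, 4.48, 4.79, 4.66 and 4.08 FPKM in whole midbrain. The groups were well separated, at about 264 to 380 reads in dopaminergic libraries and 332 to 750 reads in whole midbrain, whose libraries are less deep. Htr1a had a log2 fold change of -1.27 ± 0.09, with a limma adjusted p of 8.0e-07. Htr1d, a presynaptic receptor, was at 0.305, 0.644, 1.02 and 0.719 FPKM, against 2.88, 1.15, 2.90, 2.86 and 2.70 FPKM. Whole midbrain library 2 was far below its group and close to the dopaminergic range, without overlapping it. Its log2 fold change was -1.05 ± 0.20 (limma adjusted p = 8.0e-04), and under quantile normalization it was not called (adjusted p = 0.0727, in a range from 1.9e-06 to 0.0727). Because Htr1d passed the filter only through whole midbrain, it had to differ, and its call adds no support.

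Htr1b, the autoreceptor of serotonergic axon terminals, was at 1.39, 1.12, 1.89 and 2.30 FPKM in the dopaminergic libraries and at 3.83, 1.35, 3.13, 3.22 and 2.93 FPKM in whole midbrain. Whole midbrain library 2 fell within the dopaminergic range. The call was a narrow one (log2 fold change -0.52 ± 0.21, limma adjusted p = 0.0454) and ended in 9 of 17 alternatives, 7 of which left out a library other than dopaminergic library 4 and whole midbrain library 2 (adjusted p from 5.0e-04 to 0.835 over all alternatives). Of the exonic bases of Htr1b, 852 within the 1161 bases measured are shared with the antisense gene D430036J16Rik, which averaged 0.749 FPKM in the dopaminergic libraries against 2.28 FPKM in whole midbrain, so reads of the pair cannot be told apart without the strand. Serotonergic neurons carry Htr1a and Htr1b themselves. Their 4 markers (Tph2, Slc6a4, Fev and Gata3) summed to 7.19 to 14.1 FPKM in the dopaminergic libraries against 54.1 to 116 FPKM in whole midbrain. All 4 were lower without overlap and none was at 0, and their part in the fall of these receptors was not tested.

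Htr5a, a Gi-coupled receptor (chromosome 5, 27841947 to 27855086), was the 1 gene called higher among the 7 of its family that were tested. It was at 4.29, 4.69, 6.17 and 4.80 FPKM in the dopaminergic libraries, against 3.53, 4.12, 3.51, 3.58 and 4.01 FPKM in whole midbrain. The lowest dopaminergic library lay just above the highest of whole midbrain. The log2 fold change was 0.33 ± 0.10 (limma adjusted p = 0.0134), and it became 0.13 under upper-quartile scaling (adjusted p = 0.238) and -0.22 as TPM (adjusted p = 0.118), where the median of all genes was -0.55. Over the alternatives the limma adjusted p of Htr5a spanned 2.6e-04 to 0.238. Htr7, a Gs-coupled receptor (chromosome 19, 35958729 to 36057360), was at 2.05, 3.43, 2.66 and 2.81 FPKM, against 4.71, 3.20, 4.91, 5.66 and 4.24 FPKM. Whole midbrain library 2 lay inside the dopaminergic range, and the other 4 lay above it. It was called lower (log2 fold change -0.57 ± 0.15, limma adjusted p = 0.00555), but not under quantile normalization (adjusted p = 0.208, in a range from 3.2e-04 to 0.208).

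The Gs-coupled receptor gene Htr4 averaged 0.673 ± 0.150 FPKM in dopaminergic neurons and 1.04 ± 0.0693 FPKM in whole midbrain. It did not pass the filter, and with no filter it was called lower (log2 fold change -0.29, limma adjusted p = 0.00607). Not detected by the limit of 1 FPKM were Htr1f, Htr3a, Htr3b, Htr5b and Htr6. The channel subunit Htr3a was at 0.0169 to 0.0436 FPKM in the dopaminergic libraries, the worth of a few reads, and at 0.261 to 0.826 FPKM in whole midbrain. Its partner Htr3b was listed at 0 in all libraries except dopaminergic library 2, at 0.245 FPKM. The Gi-coupled Htr1f averaged 0.0933 FPKM against 0.850 FPKM. The Gs-coupled Htr6 averaged 0.796 FPKM against 0.303 FPKM, with no overlap, and its 4 dopaminergic values were 0.756, 0.650, 0.738 and 1.04 FPKM. Htr5b, a rodent relative of Htr5a, varied from 0.0263 to 1.01 FPKM among dopaminergic libraries and from 0.291 to 0.743 FPKM in whole midbrain.

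The summed level of the 14 serotonin receptor genes was 21.1 ± 2.98 FPKM in dopaminergic neurons and 49.6 ± 4.73 FPKM in whole midbrain, and without Htr2c it was 15.2 ± 1.55 against 26.0 ± 3.09 FPKM. The ranges of both sums did not overlap between groups. Within the family Htr2c made up 27.4% ± 3.51 in dopaminergic neurons and 47.7% ± 3.02 in whole midbrain, and Htr5a made up 23.9% ± 3.81 and 7.66% ± 1.39.

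**Figure D3:**
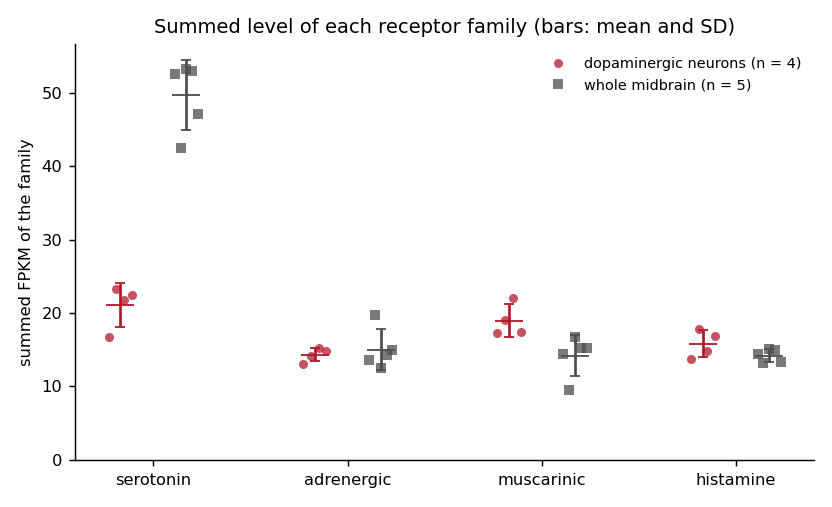
Summed FPKM of all genes of each receptor family, with 1 point per library and bars for the mean and SD (red circles, dopaminergic neurons, n = 4; grey squares, whole midbrain, n = 5). The serotonin family is at 16.7 to 23.3 FPKM in dopaminergic neurons and 42.5 to 53.3 FPKM in whole midbrain. The muscarinic family is the other way round, at 17.3 to 22.1 FPKM and 9.47 to 16.8 FPKM, and the adrenergic and histamine ranges overlap. All sums are of FPKM as deposited, with no rescaling.

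Adrenergic receptor calls went in both directions. Of 9 genes, 6 were tested, with 3 higher, 2 lower and 1 not called. As 38.3% of all genes tested were called higher and 36.0% lower, these counts alone do not set the family apart. Adrb3 encodes a Gs-coupled receptor best known from fat tissue (chromosome 8, 27225776 to 27229588). It was at 2.71, 2.35, 2.17 and 2.51 FPKM in the dopaminergic libraries, against 0.748, 0.280, 0.562, 0.512 and 0.343 FPKM in whole midbrain. The groups were widely separated, with a mean 4.98-fold higher in dopaminergic neurons. Adrb3 had a log2 fold change of 1.21 ± 0.12 (SE), with a limma adjusted p of 5.6e-06, and 1.22 as TPM. Because Adrb3 passed the filter only through dopaminergic neurons, it had to differ, and its call adds no support. Its exons share 545 bases within the span measured with the antisense gene Gm45470, which has no row of its own, so reads of that gene cannot be told from those of Adrb3. Adrb1, the Gs-coupled subtype of the heart and the forebrain (chromosome 19, 56722372 to 56724862), was at 1.83, 2.24, 2.34 and 2.07 FPKM, against 0.912, 0.858, 1.19, 1.71 and 1.53 FPKM. The ranges touched closely without overlapping. Its log2 fold change of 0.49 ± 0.13 was called (limma adjusted p = 0.00689) but was not called under upper-quartile scaling (0.34, adjusted p = 0.0522) or as TPM (0.12, adjusted p = 0.618), in a range from 6.1e-05 to 0.618.

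The Gq-coupled alpha-1 subtypes went in opposite directions. Adra1b (chromosome 11, 43774605 to 43901237) was at 5.69, 5.65, 6.79 and 6.88 FPKM in the dopaminergic libraries, against 2.98, 4.50, 2.32, 3.0 and 3.26 FPKM in whole midbrain. All dopaminergic libraries were higher, and whole midbrain library 2 was the nearest to them. The mean was 1.95-fold higher, with a log2 fold change of 0.80 ± 0.14 (limma adjusted p = 3.9e-04), and 0.31 as TPM (adjusted p = 0.0423). Adra1a (chromosome 14, 66635251 to 66771168) was at 0.431, 1.16, 0.612 and 0.524 FPKM, against 3.61, 2.56, 3.42, 3.38 and 3.36 FPKM. Its highest dopaminergic library was below its lowest whole midbrain library, and the log2 fold change was -1.35 ± 0.14 (limma adjusted p = 8.1e-06). Because Adra1a passed the filter only through whole midbrain, it had to differ, and its call adds no support. Adra1b made up 43.6% ± 2.84 of the summed adrenergic FPKM in the dopaminergic libraries and 21.3% ± 1.62 in whole midbrain, and Adra1a made up 4.76% ± 2.29 and 22.6% ± 5.75. The third subtype, Adra1d, was not detected, at 0.193 FPKM against 0.579 FPKM.

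Among the Gi-coupled alpha-2 subtypes, Adra2a, the autoreceptor of noradrenergic neurons (chromosome 19, 54045182 to 54048982), was at 0.551, 1.34, 1.33 and 1.18 FPKM, against 3.03, 7.28, 2.54, 2.94 and 3.76 FPKM. All whole midbrain libraries were higher, and library 2 was well above the next. Adra2a fell by 1.17 ± 0.24 on the log2 scale (limma adjusted p = 0.00130). Adra2c, which also acts as an inhibitory autoreceptor (chromosome 5, 35278566 to 35281763), was at 1.73, 1.07, 1.21 and 1.43 FPKM, against 1.06, 3.09, 1.11, 1.11 and 1.02 FPKM. Whole midbrain library 2 was the highest of all, as for Adra2a, and the ranges overlapped. The log2 fold change was -0.02, with a 95% interval from -0.49 to 0.45 (limma adjusted p = 0.943), and it was 0.61 and called under quantile normalization (adjusted p = 0.0406, in a range from 0.0406 to 0.991). Adra2b was not detected, at 0.0699 FPKM against 0.185 FPKM. The noradrenergic markers Dbh and Slc6a2 summed to 0 to 0.103 FPKM in the dopaminergic libraries and to 0.0103 to 1.79 FPKM in whole midbrain, with both at 0 in at least 1 dopaminergic library and Dbh also at 0 in whole midbrain. Their part in the fall of Adra2a was not tested.

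**Figure D4:**
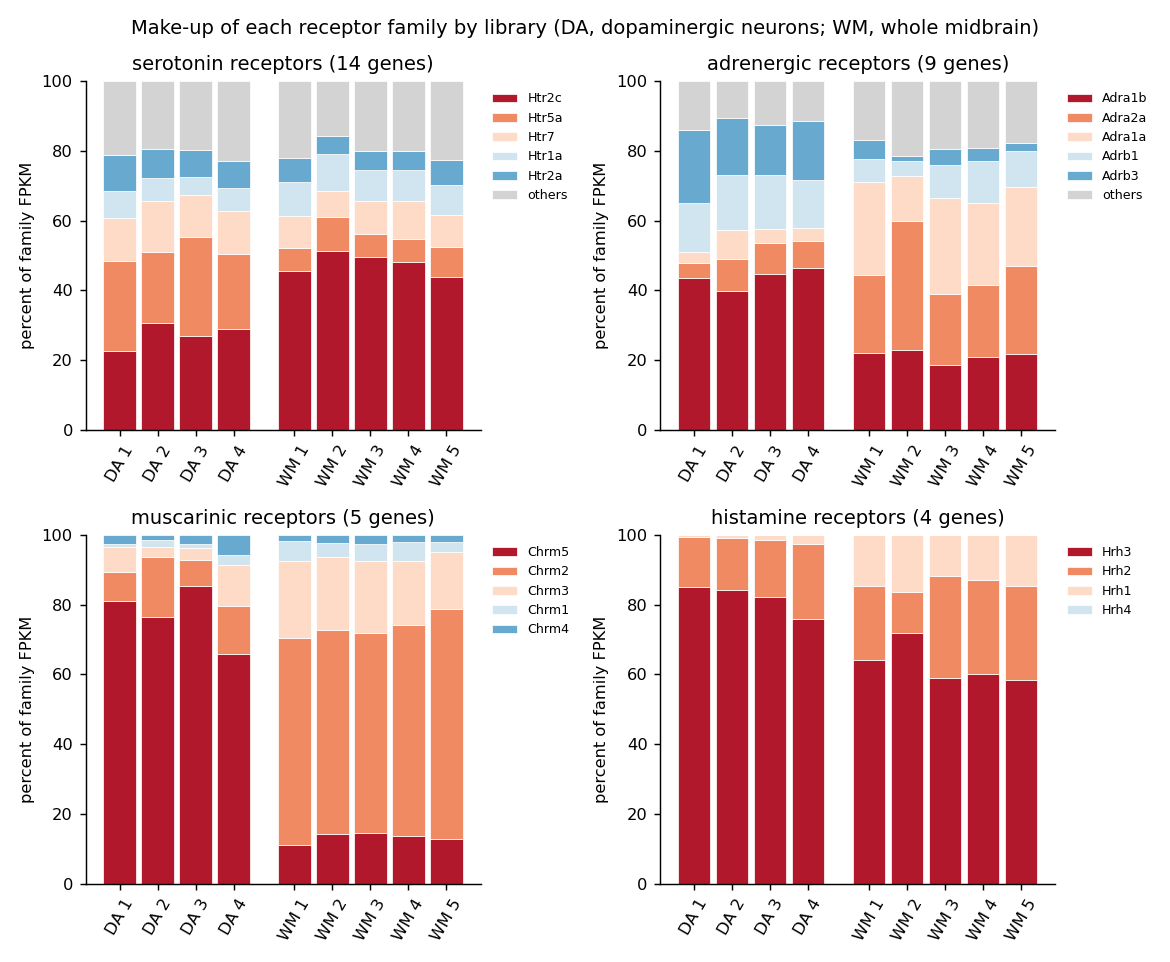
Percent of each family's summed FPKM taken by its members in every library, as stacked bars for the 4 dopaminergic (DA) and the 5 whole midbrain (WM) libraries. The red Chrm5 segment takes 65.8 to 85.2% of the muscarinic family in DA libraries and 11.1 to 14.5% in WM libraries, and Adra1b and Adrb3 take larger shares of the adrenergic family in DA libraries.

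Histamine receptors were led by Hrh3 in both groups. Hrh3, a Gi-coupled receptor that limits transmitter release from axons (chromosome 2, 180099465 to 180104407), was at 11.7, 15.0, 12.2 and 12.8 FPKM in the dopaminergic libraries, against 9.27, 9.43, 8.90, 8.95 and 7.82 FPKM in whole midbrain. The groups did not overlap, and the mean was 1.45-fold higher in dopaminergic neurons. The log2 fold change was 0.49 ± 0.09 (limma adjusted p = 5.0e-04), and it turned to -0.10 as TPM (adjusted p = 0.420), where it still stood 0.45 above the median of all genes. Its exons share 349 bases with the antisense gene Gm17180, which has no row of its own. Hrh1, the Gq-coupled target of sedating antihistamines (chromosome 6, 114397936 to 114483296), was at 0.0905, 0.169, 0.229 and 0.470 FPKM, against 2.13, 2.14, 1.79, 1.94 and 1.97 FPKM. The mean was 8.33-fold higher in whole midbrain, and the log2 fold change was -1.28 ± 0.11 (limma adjusted p = 2.7e-06). Because Hrh1 passed the filter only through whole midbrain, it had to differ, and its call adds no support. Hrh1 is also known from astrocytes and endothelial cells, whose markers were lower in the same libraries by the sums given above, and their part in the fall of Hrh1 was not tested.

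Hrh2, a Gs-coupled receptor known from acid secretion in the stomach, was at 1.99, 2.65, 2.44 and 3.61 FPKM, against 3.04, 1.58, 4.37, 3.99 and 3.59 FPKM, with overlapping ranges. Its log2 fold change of -0.20 was not called (95% interval from -0.68 to 0.27, limma adjusted p = 0.399). It was called lower without whole midbrain library 2 (-0.38, adjusted p = 0.0260), with library weights (-0.36, adjusted p = 0.0240) and as TPM (-0.80, adjusted p = 0.0343), in a range from 0.0240 to 0.683. Hrh4, a receptor of immune cells, was listed at 0 in all 9 libraries. Hrh3 made up 81.7% ± 4.10 of the summed histamine receptor FPKM in the dopaminergic libraries and 62.7% ± 5.48 in whole midbrain.

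Sorted by coupling, the shares of the classes differed less than those of their leading genes. The 10 Gq-coupled genes made up 44.4% ± 2.60 of the summed FPKM of all members in dopaminergic neurons and 45.7% ± 1.02 in whole midbrain. The 13 Gi-coupled genes made up 39.0% ± 1.57 and 41.4% ± 1.99, and the 7 Gs-coupled genes 16.5% ± 1.15 and 12.3% ± 1.96. The Gs share did not overlap between groups, at 15.0 to 17.8% against 9.03 to 14.1%, while the Gq and Gi shares overlapped. Chrm5 took 47.1% ± 6.94 of the Gq-coupled sum in dopaminergic neurons and 4.43% ± 0.804 in whole midbrain, and Htr2c took 18.7% ± 4.12 and 55.6% ± 2.34. Among Gs-coupled genes Adrb3 took 21.3% ± 3.53 and 4.21% ± 1.33, and Htr7 took 23.6% ± 3.45 and 39.5% ± 2.42. Hrh2 differed less, at 22.9% ± 3.79 and 28.0% ± 4.92. Calls were split within each class, with 2 higher and 5 lower among the 7 Gq-coupled genes tested, 2 and 5 among 8 Gi-coupled genes and 2 and 1 among 4 Gs-coupled genes. With 38.3% of all genes tested called higher and 36.0% lower, calls in both directions are common in this comparison.

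The genes that make, take away and transmit these signals were counted for context, with all changes below on the log2 scale of FPKM + 1 and called by limma. All counts in this and the next paragraph are to be read against the 38.3% of all genes tested called higher and 36.0% called lower. The lists are short, and no list was tested as a set. These changes are those of the FPKM as deposited. As TPM the median of all genes was -0.55 instead of 0.04, so rises of about that size or smaller depend on the scaling. Of 11 genes for synthesis and uptake of the 4 transmitters, 5 were tested and 4 fell, none rising (median log2 fold change -1.84). The serotonin transporter Slc6a4 fell by 3.19 on the log2 scale and the serotonin-synthesizing enzyme Tph2 fell by 2.13. Of 6 breakdown enzymes 4 rose and 2 fell (median 0.35). Maoa and Hnmt, which degrade monoamines and histamine, rose by 0.65 and 0.62, and Bche and Maob fell by 1.62 and 1.02. Of 8 genes of the Gq pathway 5 were tested, with 3 higher and 1 lower (median 0.71). The Gq family subunits Gna11 and Gnaq rose by 1.29 and 0.85, and the phospholipase Plcb3 fell by 1.03.

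Of 5 Gi and Go alpha subunits 4 rose and 1 fell (median 0.90), with Gnaz at 42.1 ± 5.44 FPKM in dopaminergic neurons against 11.0 ± 1.85 FPKM in whole midbrain, Gnai2 up by 0.95 and Gnai3 at -0.50. Of 11 genes for Gs, Golf and adenylyl cyclases 10 were tested, with 3 higher and 5 lower (median -0.31). Gnas rose by 0.73, though it stood at -0.15 under quantile normalization (limma adjusted p = 0.362) and at 0.09 as TPM (adjusted p = 0.314), and the cyclase Adcy5 rose by 0.65, while Adcy8 and Adcy7 fell by 1.41 and 1.16. Of 7 receptor kinase and arrestin genes 4 rose and 1 fell (median 0.58), among them Grk6 (1.16), Adrbk1 (0.97) and Grk4 (-0.67). Of 7 genes for receptor partners and RNA editing enzymes 4 rose and 2 fell (median 0.39). S100a10, whose protein binds Htr1b receptors, was at 188 ± 12.4 FPKM in dopaminergic neurons against 34.2 ± 6.03 FPKM in whole midbrain, and the scaffold gene Dlg4 rose by 1.10. Mpdz, whose protein binds Htr2c receptors, and Ric3, a chaperone of channel-forming receptors, fell by 0.83 and 0.46.

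Among members below the filter, calls rest on fewer reads. With no filter on low values 31 members had a value, with 7 called higher and 17 lower, against 25.9% and 34.2% of all 20084 genes. The gene added to the higher calls was Htr6 (log2 fold change 0.46, limma adjusted p = 8.4e-04), and Htr1b was no longer called lower (adjusted p = 0.0677). Over all 32 members, groups did not overlap for 20 (7 higher and 13 lower in dopaminergic neurons), against 43.1% of all rows.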

How the data were processed

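RNA of both groups was converted to cDNA with a low-input kit, sheared and sequenced as single-end reads on an Illumina HiSeq instrument, per the labels' protocols. The authors deposited 1 table of FPKM for 24487 genes, made with TopHat2 2.0.8 and Cufflinks 2.1.1 on mm10, per the submitters' processing notes. Annotation, options and strand handling: not given in the sources used here. In the deposited FPKM, 71.5 to 74.7% of whole midbrain values have more than 6 significant digits, against 0.216 to 0.249% of dopaminergic values. The 2 groups were therefore not written in the same form, and any effect of that cannot be told apart from the cell type.

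Dopaminergic libraries were set against whole midbrain with limma (version 3.58.1, R version 4.3.3), two-sided, using log2(FPKM + 1) of the genes that averaged 1 FPKM or more. The fit let the prior variance follow expression and had 7 residual and 3 prior degrees of freedom. P-values were adjusted by Benjamini-Hochberg over all genes tested (threshold 0.05). FPKM are not counts, so no count model was used. Such a fold change understates the change of low genes. The test was checked on simulated data, with changes put only into genes of a higher mean level. That check does not cover the lower receptor genes. Reads behind single-exon genes were estimated from the lowest common step of length-scaled FPKM, with a fragment of 200 bases assumed. These estimates are rough. Coordinates are the table's gene spans on mm10, counted from 1, and exon overlaps come from the GENCODE annotation of the same assembly. The receptor genes are named, except that 1 is not reported here. Of each context list, the 2 called genes with the largest change in each direction are named. The members, lists and tests were chosen with earlier results of these data known. Python 3.11.15, NumPy 2.4.6, pandas 2.3.3 and matplotlib 3.10.9 were used for summaries. Alternatives were pseudocounts of 0.1 and 5, no filter, a minimum mean of 5 FPKM, 3 other scalings, library weights, a replicate block and leaving out each library.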

Additional observations from a re-analysis of the deposited data

Results flagged for a closer look

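Of 61 sets of member values (1 gene in 1 group, those at 0 throughout left out), 6 held a library far from the others by Dixon's criterion at the 95% level, which flags about 1 in 20 by chance. Adrenergic and serotonin receptor values of whole midbrain library 2 made up 4 of them. Adra1a was at 2.56 FPKM there, below the 3.36 to 3.61 FPKM of the rest, and Htr1d at 1.15 FPKM, below 2.70 to 2.90 FPKM. Adra2a was at 7.28 FPKM, above 2.54 to 3.76 FPKM, and Adra2c at 3.09 FPKM, above 1.02 to 1.11 FPKM. In dopaminergic library 2, Htr2a was at 1.95 FPKM, above 1.70 to 1.73 FPKM, and Htr3b was at 0.245 FPKM while it was listed at 0 in the other 3.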

How the results depend on the processing

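The receptor genes called in dopaminergic neurons were 6 higher and 11 lower. Leaving out each library in turn gave 6 to 6 higher and 10 to 12 lower, and over all genes 4699 to 5654 higher and 4445 to 4974 lower. With a minimum mean of 5 FPKM, 4 members were tested, with 2 higher and 2 lower, and 2493 of all genes were lower. With no filter 17 members were lower. Under quantile normalization 6 were lower, and Adra2c turned to 0.61, Hrh2 to 0.17 and Gnas to -0.15. As TPM 3 members were higher, Hrh3 turned to -0.10 and Htr5a to -0.22, and 2248 of all genes were higher and 7393 lower. The cause of these changes was not tested, apart from the fewer genes tested with the higher minimum. Adra2c, at -0.02 and not called, was at 0.00 with a pseudocount of 0.1, at 0.15 with library weights, and at 0.04, 0.01 and 0.18 without dopaminergic libraries 2 and 3 and whole midbrain library 2, in a range from -0.09 to 0.18 over the libraries left out in turn. Of 327 single-member values under the alternatives, 299 kept both direction and call, 18 lost the call, 4 gained it and 9 changed sign, some of these counted under both. Same-numbered libraries of the 2 groups deviated with correlations of -0.06 to 0.01, within the -0.10 to 0.08 of the other pairs. Such values cannot tell whether same-numbered libraries came from the same animals or pool, which the labels do not state. The replicate block over libraries 1 to 4 left 6 members higher and 11 lower. Depth limits the members under 1 FPKM, where 1 read per 1000 positions is worth up to 0.0611 FPKM.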
